A study of Mus musculus with 2 samples.

Results

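The data were fragments of 20 tRNA genes of the mouse mitochondrial genome in small RNA libraries of young and old brains. These are all of the 22 mitochondrial tRNA genes of the annotation (GENCODE M1) except mt-Ty and mt-Ts2. The members were chosen by gene, and a distinct sequence, here called a tag, was counted when it had no undetermined base and matched perfectly, on the sense strand, inside a gene. This gave 2385 tags of the 725090 tags without an undetermined base, 1602 of them in the young and 1904 in the old library. Of these, 1121 tags were present in both.

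The libraries were made from whole brain, 1 of young mice (5 months) and 1 of old mice (24 to 25 months). In each, the cDNA of 2 males of the inbred C57BL/6J strain had been combined, so that the animals could not be separated, and the labels name no treatment or engineered allele. RNA of 18 to 30 nucleotides was cut from a gel, ligated to adapters and read as 36 nucleotides, and the deposited tags were 17 to 26 nucleotides long. The young library held 4523267 reads and the old library 6658732 reads. With 1 library per age there was no replicate, and every interval and P-value below covers only the error of sampling reads, which were amplified by PCR and do not each stand for a molecule. A P-value therefore compares these 2 libraries and not the ages.

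Mitochondria make proteins of the respiratory chain on their own ribosomes, with tRNAs that the mitochondrial genome itself encodes. Both strands of that circular genome are transcribed into long precursors, from which the tRNAs are cut at their 5′ and 3′ ends, and the bases CCA are then added to the 3′ end without a template. Mitochondrial tRNAs carry many modified bases, some of which stop or mislead reverse transcriptase, and their fragments are regularly found in small RNA libraries of tissues rich in mitochondria, brain among them.

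The genes are on chromosome M of NCBIM37 (mm9), and each is a single exon without intron or UTR. The following are the sequences of the 8 genes with the most reads per base, in the sense of the tRNA from 5′ to 3′, with the tag that had the highest mean RPM (reads scaled to 1000000 reads of the library) of both libraries in capitals. They are shown because the place of the fragments within the tRNA differed between genes. In mt-Ta, mt-Tf, mt-Tp and mt-Tk the same tag also had the most reads in each library, whereas in the other genes shown the tag with the most reads differed between the libraries. For mt-Tv it ran from base 19 to base 35 in the young library (345 reads) and from base 40 to base 64 in the old library (527 reads). A further 3 genes, whose fragments are described below, follow them.
mt-Tv: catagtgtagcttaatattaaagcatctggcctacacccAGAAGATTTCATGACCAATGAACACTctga
mt-Th: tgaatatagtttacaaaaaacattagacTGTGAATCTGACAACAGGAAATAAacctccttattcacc
mt-Tt: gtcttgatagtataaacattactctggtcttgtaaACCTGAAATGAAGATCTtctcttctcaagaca
mt-Tl1: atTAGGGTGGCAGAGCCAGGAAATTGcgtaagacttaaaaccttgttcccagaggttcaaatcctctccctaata
mt-Ta: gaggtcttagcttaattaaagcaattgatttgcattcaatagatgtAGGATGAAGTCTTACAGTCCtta
mt-Te: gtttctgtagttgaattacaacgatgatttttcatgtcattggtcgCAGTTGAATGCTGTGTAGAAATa
mt-Tf: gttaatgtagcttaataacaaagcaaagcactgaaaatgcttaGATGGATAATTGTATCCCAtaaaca
mt-Ts1: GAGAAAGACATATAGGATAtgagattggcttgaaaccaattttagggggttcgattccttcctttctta
mt-Tp: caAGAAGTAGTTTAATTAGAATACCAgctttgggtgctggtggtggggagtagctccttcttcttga
mt-Tk: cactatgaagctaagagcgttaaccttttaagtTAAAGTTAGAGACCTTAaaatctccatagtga
mt-Tw: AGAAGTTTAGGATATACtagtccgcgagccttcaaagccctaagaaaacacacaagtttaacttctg
Their positions are chrM:1025-1093 for mt-Tv, chrM:11546-11612 for mt-Th, chrM:15289-15355 for mt-Tt, chrM:2676-2750 for mt-Tl1, chrM:1-68 for mt-Tf, chrM:7700-7764 for mt-Tk and chrM:4950-5016 for mt-Tw, all on the plus strand. On the minus strand, mt-Ta is at chrM:5018-5086, mt-Te at chrM:14071-14139, mt-Ts1 at chrM:6870-6938 and mt-Tp at chrM:15356-15422.

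The label of brain was checked against miRNAs. The neuronal miR-124 stood at 31517 RPM in the young and 13440 in the old library (highest of its genes), the liver miRNA miR-122 at 170 and 106, and the muscle miRNAs miR-133 at 5.31 and 2.70. The other brain miRNAs looked up were miR-128 (20651 and 12134 RPM), miR-138 (5177 and 2572) and miR-9 (4852 and 4233). The muscle miRNAs miR-1 (5801 and 9107 RPM) and miR-206 (1019 and 995) were present too, miR-1 above miR-138 and miR-9 in both libraries. The part of these muscle miRNAs in the results below was not tested. Reads of 17 to 19 nucleotides made up 5.35% of the young and 3.90% of the old library, and reads without an undetermined base 95.4% and 98.9%.

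The 20 genes together gave nearly the same level in both libraries. They held 10306 young and 15360 old reads, which is 2278 and 2307 RPM, or 0.228% and 0.231% of the library. The log2 ratio of old over young was 0.02 (95% interval -0.02 to 0.05, exact Clopper-Pearson interval of the counts), with P = 0.322 in the random sampling model of DEGseq. In whole brain, fewer cells of a type and less RNA per cell cannot be told apart, and the same holds for the number of mitochondria. The genes mt-Ty and mt-Ts2, with 118490 young and 199037 old reads between them, had a log2 ratio of 0.19 (0.18 to 0.20). Relative to them the 20 genes were lower in the old library by a log2 ratio of ratios of -0.17 (-0.21 to -0.13).

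The level per base of gene covered a wide range that was shared by both libraries. It ran from 0.145 RPM per base for mt-Td (aspartate) to 6.21 for mt-Tv (valine) in the young library, and from 0.154 to 7.57 for the same genes in the old library. Across the 20 genes, the young and old levels (log10 RPM) had a Pearson r of 0.958 and a Spearman rho of 0.910. These are correlations across genes, which share 2 libraries and are not replicates. After mt-Tv came mt-Th (histidine) with 4.95 and 3.47 RPM per base and mt-Tt (threonine) with 4.48 and 2.42, and the order of these and of mt-Tl1 (leucine, anticodon UAA; 3.04 and 3.04) and mt-Ta (alanine; 2.45 and 3.25) differed between the libraries.

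**Figure D1:**
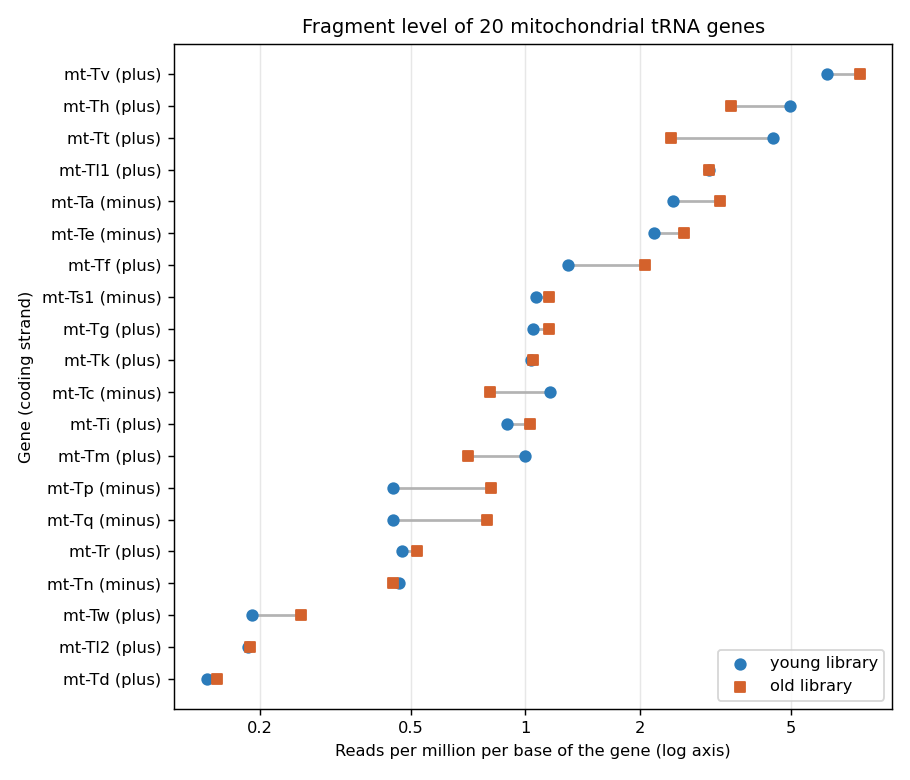
RPM per base of gene, on a log axis, for the 20 genes, with the young library as circles and the old library as squares. mt-Tv is highest in both libraries (6.21 and 7.57) and mt-Td lowest (0.145 and 0.154), and the widest gaps between libraries are those of mt-Tt, mt-Tp and mt-Tq.

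No gene differed 2-fold between the libraries, against 24.7% of the 671 annotated small RNA genes with at least 20 reads, although all 20 passed that minimum. The random sampling model called 6 of the 20 genes higher in the old library (Benjamini-Hochberg adjusted P under 0.05 over the 671 genes), against 11.6% of the background, and 4 lower, against 57.2% of the background. The median log2 ratio was 0.12 over the 20 genes and -0.56 over the 671, among which miRNA genes are the largest class. Among the 20, 14 ratios were above 0 and 6 below. Over the 20 genes, the log2 ratio had a Pearson r of 0.05 with GC content.

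The genes lower in the old library were mt-Tt, mt-Th, mt-Tc and mt-Tm. mt-Tt held 1359 young and 1080 old reads, or 300.4 and 162 RPM, a log2 ratio of -0.89 (-1.01 to -0.77). It was the largest difference among the 20 genes in either direction. mt-Th held 1500 and 1546 reads (log2 ratio -0.51, -0.62 to -0.41). mt-Tc, the tRNA for cysteine, held 346 and 355 reads (-0.52, -0.74 to -0.30), but its tags with a single match in the genome held 31 and 42 reads and did not pass the test (log2 ratio -0.12). mt-Tm, the tRNA for methionine, which in mitochondria serves both initiation and elongation, held 312 and 325 reads (-0.50, -0.73 to -0.27). All 4 adjusted P-values of the model were at or under 2.59e-05. Scaled by TMM or DESeq2 factors over the small RNA genes, which moved every log2 ratio up by 0.61 or 0.56, mt-Th, mt-Tc and mt-Tm were above 0 and mt-Tt was the gene still below, at -0.28 and -0.33.

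The genes higher in the old library were mt-Tp, mt-Tq, mt-Tf, mt-Ta, mt-Tv and mt-Te. mt-Tp, the tRNA for proline, held 136 young and 363 old reads (log2 ratio 0.86, 0.57 to 1.15), and mt-Tq, the tRNA for glutamine, 144 and 374 reads (0.82, 0.54 to 1.11). mt-Tf, the tRNA for phenylalanine, held 398 and 933 reads (0.67, 0.50 to 0.84). mt-Ta held 765 and 1492 reads (0.41, 0.28 to 0.53). These 4 genes were apart from 0 by more than the counting interval, as were mt-Tv with 1939 and 3479 reads (0.29, 0.20 to 0.37) and mt-Te, the tRNA for glutamate, with 679 and 1200 reads (0.26, 0.13 to 0.40). The adjusted P-values of the model for these 6 genes were at or under 0.000206.

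The other 10 genes did not pass the test, with log2 ratios from -0.05 for mt-Tn (asparagine; 149 and 212 reads) to 0.43 for mt-Tw (tryptophan; 58 and 115 reads). mt-Tl1 had the closest levels, with 1031 young and 1516 old reads, or 228 RPM in each, and an interval of the log2 ratio from -0.12 to 0.11. mt-Td held 46 and 72 reads and mt-Tl2 (leucine, anticodon UAG) 60 and 89, and at this depth their intervals, -0.47 to 0.65 and -0.48 to 0.51, were the widest of the 20. The remaining genes were mt-Tg (glycine; 323 and 521 reads), mt-Ti (isoleucine; 279 and 472), mt-Tk (lysine; 304 and 452), mt-Tr (arginine; 146 and 235) and mt-Ts1 (serine, anticodon UGA; 332 and 529).

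**Figure D2:**
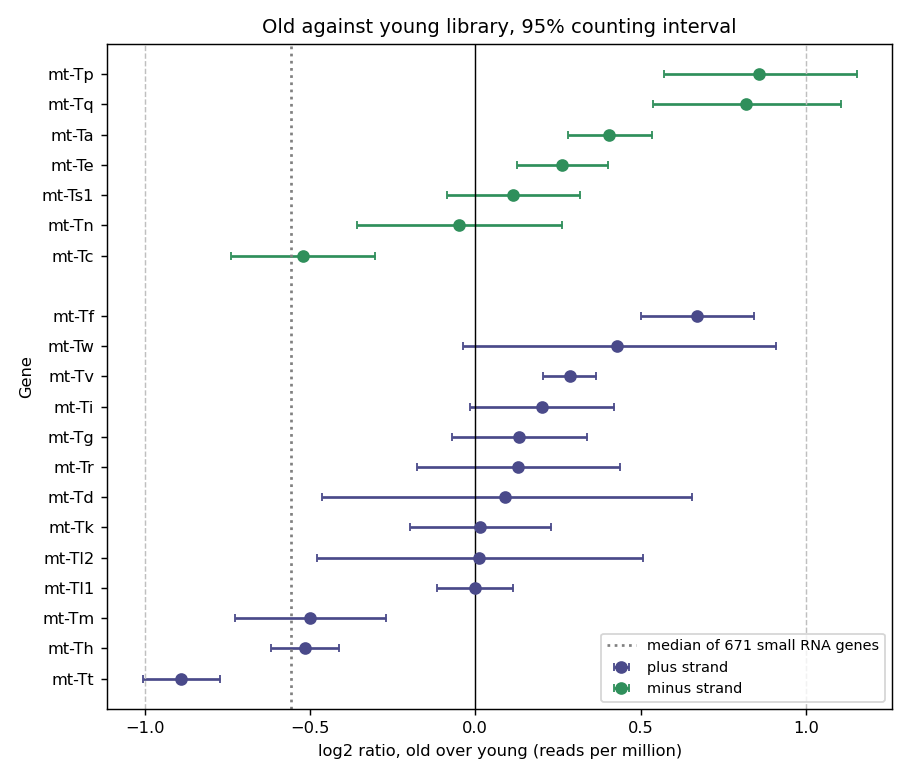
Log2 ratio of old over young RPM for each gene, with its 95% counting interval, for the 7 minus-strand genes (top) and the 13 plus-strand genes (bottom). The dotted line is the median of the 671 small RNA genes (-0.56) and the dashed lines mark 2-fold. mt-Tt (-0.89) is farthest to the left and mt-Tp (0.86) farthest to the right, and no point lies beyond 2-fold.

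Separated by coding strand, the sums moved in opposite directions. The 13 plus-strand genes held 7755 young and 10835 old reads, a log2 ratio of -0.08 (exact interval -0.12 to -0.03, model P = 0.000352). The 7 minus-strand genes, mt-Ta, mt-Tc, mt-Te, mt-Tn, mt-Tp, mt-Tq and mt-Ts1, held 2551 and 4525 reads, a log2 ratio of 0.27 (exact interval 0.20 to 0.34, model P = 8.6e-15). Plus over minus, the log2 ratio of ratios was -0.34 (-0.43 to -0.26). The sign of the plus-strand sum rested on mt-Tt or mt-Th, since it was 0.05 (0.01 to 0.10) without mt-Tt and 0.01 (-0.03 to 0.06) without mt-Th, and without both it was 0.19 (0.14 to 0.24). It was above 0 also with TMM (0.54) and DESeq2 (0.48) factors and with single-match tags (0.28). Of the 2853 young and 5085 old single-match reads of the plus strand, mt-Tv held 1910 and 3399, and mt-Th was left out. The minus-strand sum stayed above 0 with these factors and with single-match tags. Without any 1 of its own genes it was between 0.21 (without mt-Ta) and 0.36 (without mt-Tc). Gene by gene, 9 of the 13 plus-strand and 5 of the 7 minus-strand ratios were above 0, with medians of 0.09 and 0.26.

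Of the other mitochondrial genes, 15 of 17 were above 0, with a median log2 ratio of 0.42. All but 1 of the 13 protein-coding genes were among them, 3 of them at least 2-fold higher in the old library. Of the 671 small RNA genes, 24.7% were at least 2-fold apart in either direction. The 3 genes were mt-Co1 and mt-Cytb, just past 2-fold (ratios 2.01 and 2.06), and mt-Atp8, with only 6 young and 23 old reads. mt-Co1, a catalytic subunit of cytochrome c oxidase, held 531 young and 1569 old reads, and the rRNA genes mt-Rnr1 and mt-Rnr2 had log2 ratios of 0.25 and 0.32. The exception among the protein-coding genes was mt-Nd6, the protein-coding gene of the minus strand, with 28 and 33 reads. The median of the 13 protein-coding genes was 0.62, against 0.12 for the 20 tRNA genes.

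Each gene gave fragments from its own part of the tRNA, and this place was much the same in both libraries. A perfectly matched tag was assigned to the 5′, middle or 3′ part by the position of its centre in 3 equal parts of the gene. In the old library, most reads were 5′ in 7 genes, middle in 7 and 3′ in 6, and the leading part was the same as in the young library for 16 of the 20 genes. The 4 exceptions were mt-Ti, mt-Tm, mt-Tk and mt-Tl2, whose reads were spread over more than 1 part. mt-Tk held 205 old reads in both the 5′ and the middle part and mt-Tl2 held 27 young reads in both, and these ties were counted as 5′. Reads substituted at base 9, in the 5′ part, are left out of these counts. They were 227 young and 296 old for mt-Tk and 39 and 84 for mt-Tl2. In both genes they outnumbered the perfect reads of the 5′ part (135 and 205, and 27 and 37), and the leading part with them added was not tested.

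Fragments of mt-Tv, mt-Ta, mt-Te, mt-Tf and mt-Tg came from the 3′ part in both libraries. The 3′ part held 74.4% of young and 81.7% of old reads of mt-Tv, and its tag of the highest mean RPM ran from base 40 to base 65 (314 young and 426 old reads). For mt-Tf, 46.2% of young and 51.1% of old reads started at base 44, and the tag from base 44 to base 62 alone held 183 and 469 reads. For mt-Ta, 43.5% and 42.5% of reads started at base 47. The leading tags of these 3 genes stopped short of the last base. That of mt-Tv was 26 nucleotides long, the longest length deposited, so that from base 40 it could not have reached further. In mt-Tg, 38.4% of young and 50.1% of old reads ended at the last base of the gene.

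Perfectly matched fragments of mt-Tl1, mt-Ts1, mt-Tp and mt-Tw came mainly from the 5′ part. For mt-Tw these were only 58 young and 115 old reads. They leave out its reads substituted at base 9 (221 and 567). They also leave out its tags with CCA added at the 3′ end that match nowhere in the genome (857 and 2313 reads). In mt-Tq the 5′ part held 53.5% of young and 46.8% of old reads and the middle 36.8% and 45.2%. The 5′ part held 91.9% of young and 91.3% of old reads of mt-Tl1, and 94.6% and 95.8% of those of mt-Ts1. Their most used start was base 1, the cut 5′ end, with 32.9% of young and 43.3% of old reads of mt-Tl1 and 42.5% and 52.9% of those of mt-Ts1. mt-Tp instead started at base 3 in 59.6% of young and 84.6% of old reads. Its tag from base 3 to base 26 held 65 young and 270 old reads, a log2 ratio of 1.497 (1.10 to 1.91), and the higher level of mt-Tp in the old library was that of its 5′ part (104 and 341 reads), while the middle part held 14 young and 8 old reads and the 3′ part 18 and 14.

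Fragments of mt-Th and mt-Tt came mainly from the middle. For mt-Th, 93.0% of young and 90.4% of old reads contained all bases of the anticodon, and the middle part held 1410 young and 1390 old reads (log2 ratio -0.58). For mt-Tt, 18.98% of young and 19.4% of old perfectly matching reads contained the anticodon, and their most used start was base 36, just past it. These shares leave out the reads substituted at base 29, before the anticodon, which were 1584 young and 883 old. Of the substituted reads, the tag with T at base 29 from base 27 to base 52, which contains the anticodon, alone held 762 and 209. Among perfectly matching reads, the middle part of mt-Tt held 1151 and 834 reads (-1.02, -1.15 to -0.89) and the 3′ part 204 and 242 (-0.31, -0.59 to -0.04). The tags of mt-Tt from base 36 to base 52 (221 young and 133 old reads) and from base 35 to base 52 (203 and 143 reads) differed by log2 ratios of -1.29 and -1.06, so both were over 2-fold lower in the old library.

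**Figure D3:**
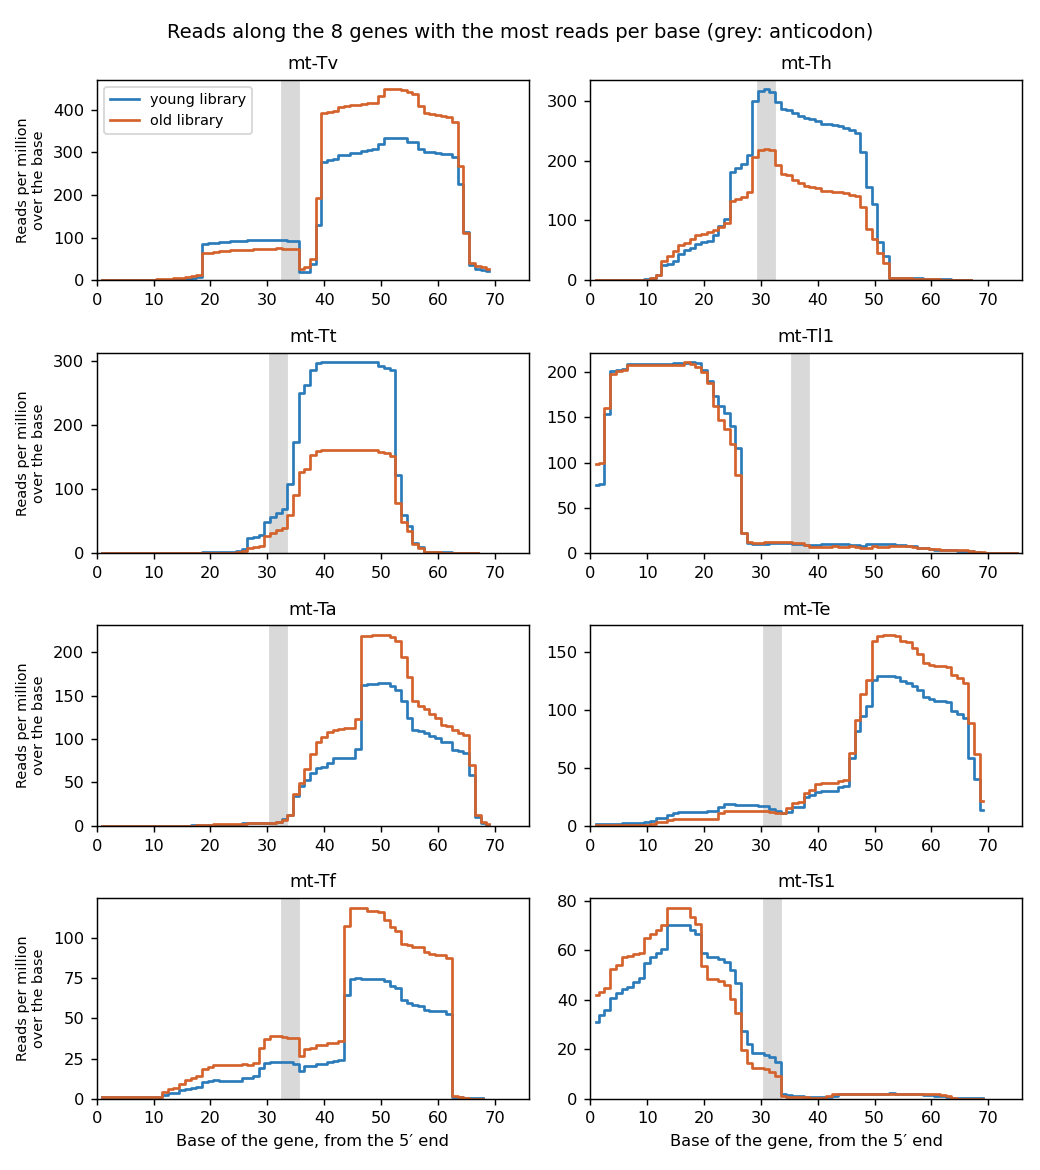
RPM over each base of the 8 genes with the most reads per base, from the 5′ end, with the anticodon in grey and the young and old libraries as lines. mt-Tv, mt-Ta, mt-Te and mt-Tf peak 3′ of the anticodon, mt-Tl1 and mt-Ts1 5′ of it, and mt-Th over it. The lines of both libraries have a similar outline, and the old line lies below the young one over the anticodon and middle of mt-Th and mt-Tt.

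Summed over the 20 genes, the middle was lower and the 3′ part higher in the old library. The 5′ part held 21.6% of young and 22.3% of old reads, the middle 44.7% and 34.6%, and the 3′ part 33.7% and 43.1% (exact intervals within 1 percentage point of each). Tags placed evenly over the genes would have given 26.6%, 47.3% and 26.1%. The log2 ratios of old over young were 0.07 (-0.01 to 0.14) for the 5′ part, -0.35 (-0.41 to -0.30) for the middle and 0.37 (0.31 to 0.43) for the 3′ part, and 3′ over middle the log2 ratio of ratios was 0.73 (0.64 to 0.81). Without mt-Tt and mt-Th the middle was at 0.03 (-0.05 to 0.11) and the 3′ part at 0.41 (0.35 to 0.47). The middle was lower also in mt-Tm (-0.61, -0.95 to -0.28), mt-Tv (-0.24, -0.42 to -0.07) and mt-Tp (-1.37, -2.83 to -0.01), and over the 19 genes with at least 20 middle reads it was higher in the old library in 8, with a median of -0.17. Within single genes, the 3′ ratio was above the middle ratio in 12 of the 16 genes that had at least 20 reads (both libraries summed) in each of these parts, with a median difference of 0.29. Weighted equally, the genes gave a mean 3′ share of 26.2% in the young and 27.7% in the old library.

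Tag length moved with the ratio to a small extent. Tags of 17 nucleotides, the shortest kept, had a log2 ratio of -0.30 (-0.40 to -0.21), those of 18 to 19 nucleotides 0.02, those of 20 to 22 nucleotides 0.17 (0.10 to 0.24) and those of 23 to 26 nucleotides 0.04 (-0.02 to 0.10). The shortest tags were also a smaller share of the whole old library, as given above, and the part of this in the ratios was not tested.

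The perfectly matched tags with the most reads were mainly those of mt-Tv. Of the 10 such tags with the most RPM, 6 came from mt-Tv, 2 from mt-Tt and 1 each from mt-Tf and mt-Ta. Of the 6 tags of mt-Tv, 4 were higher in the old library with intervals above 0, 1 was lower and 1 had an interval that included 0. The tag from base 19 to base 35, which ends with the anticodon, held 345 young and 341 old reads (log2 ratio -0.57, -0.79 to -0.35). The tag from base 40 to base 64 held 209 and 527 reads (0.78, 0.54 to 1.01), and the tag that extends it by 1 base at the 3′ end held 314 and 426 (-0.12, -0.33 to 0.10). The tag from base 39 to base 64 held 251 and 450 reads (0.28, 0.06 to 0.51), that from base 40 to base 63 113 and 280 (0.75, 0.43 to 1.08), and that from base 39 to base 63 103 and 328 (1.11, 0.79 to 1.45), past 2-fold. Of the tags of the other genes, that of mt-Ta (base 47 to base 66) held 194 and 360 reads (0.33, 0.08 to 0.59) and that of mt-Tf (base 44 to base 62) was at 0.80 (0.55 to 1.05). The pair of mt-Tt is the one given above.

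Many of these tags also match the nuclear genome, which holds copies of mitochondrial sequence. No tag of mt-Td, mt-Te, mt-Tg, mt-Th, mt-Tk, mt-Tn, mt-Tr, mt-Ts1 or mt-Tw matched at a single place, and for mt-Th, for example, every read also matched chromosome 2. By contrast, 98.5% of young and 97.7% of old reads of mt-Tv matched at a single place. Tags with a single match held 3733 young and 6984 old reads, a log2 ratio of 0.35 (0.29 to 0.40), a sum that leaves out those 9 genes, mt-Th among them, and nearly all reads of mt-Tt.

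Few reads crossed the cut ends of the tRNAs by several bases. Counted with at least 5 bases inside the gene and 3 bases outside it, tags that ran past the 5′ end held 0 young and 3 old reads, and tags that ran past the 3′ end into the next mitochondrial sequence held 4 and 4. With every tag that overlapped a gene by at least 15 bases, wherever it ended, the 20 genes held 10364 and 15470 reads in place of 10306 and 15360, and mt-Tv 1977 and 3551 in place of 1939 and 3479. Antisense reads were 263 young and 444 old over the 20 genes, 147 and 216 of them on mt-Ti and 76 and 142 on mt-Tp.

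Tags that continued past the last base of the gene into CCA were most abundant for mt-Tw and mt-Tv. The following are a short and a long tag of each gene, with the added CCA in capitals.
mt-Tw with CCA, 17 nucleotides: aagtttaacttctgCCA
mt-Tw with CCA, 24 nucleotides: aacacacaagtttaacttctgCCA
mt-Tv with CCA, 18 nucleotides: caatgaacactctgaCCA
mt-Tv with CCA, 23 nucleotides: atgaccaatgaacactctgaCCA
For mt-Tw such tags held 3200 young and 4842 old reads, against 58 and 115 reads that matched perfectly inside the gene. The tag of 17 nucleotides held 2332 and 2516 of them (log2 ratio -0.45, -0.53 to -0.37) and also matches the genome perfectly at 2 places, so that its source cannot be told apart. The tags of 18 to 26 nucleotides held 868 and 2326 reads, a log2 ratio of 0.86 (0.75 to 0.98), and those of 19 or more nucleotides match nowhere in the genome. The tag of 24 nucleotides, with 139 and 555 reads, had the largest difference among them (1.44, 1.17 to 1.72).

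For mt-Tv, tags with CCA held 1332 young and 1261 old reads, a log2 ratio of -0.64 (-0.75 to -0.52), opposite in sign to the 1443 and 2844 perfect reads of its 3′ part. The tags of 17 and 18 nucleotides, which match the genome at 3 places and at 1 place, held 129 and 96 reads and 697 and 467 reads. The source of these short tags cannot be told apart, and the CCA tags of mt-Tv that match nowhere held 506 young and 698 old reads. Those of 22 and 23 nucleotides, which match nowhere, held 199 and 269 reads and 224 and 313 reads, with log2 ratios of -0.12 (-0.39 to 0.15) and -0.08 (-0.33 to 0.18). Next were mt-Te with 110 and 169 reads, mt-Tg with 43 and 99 and mt-Tt with 72 and 67, and the total over the 20 genes was 4889 and 6643. Counts with CCA are not comparable between genes, because the authors kept only reads that aligned to the genome, and CCA differs from the genome by 2 bases after mt-Tw and mt-Tv, by 1 base after mt-Tt and by 3 bases after mt-Te and mt-Tg. Tags with a single added C that match nowhere in the genome held 488 young and 685 old reads for mt-Tg, more than its 323 and 521 perfect reads, and 66 and 97 for mt-Te.

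**Figure D4:**
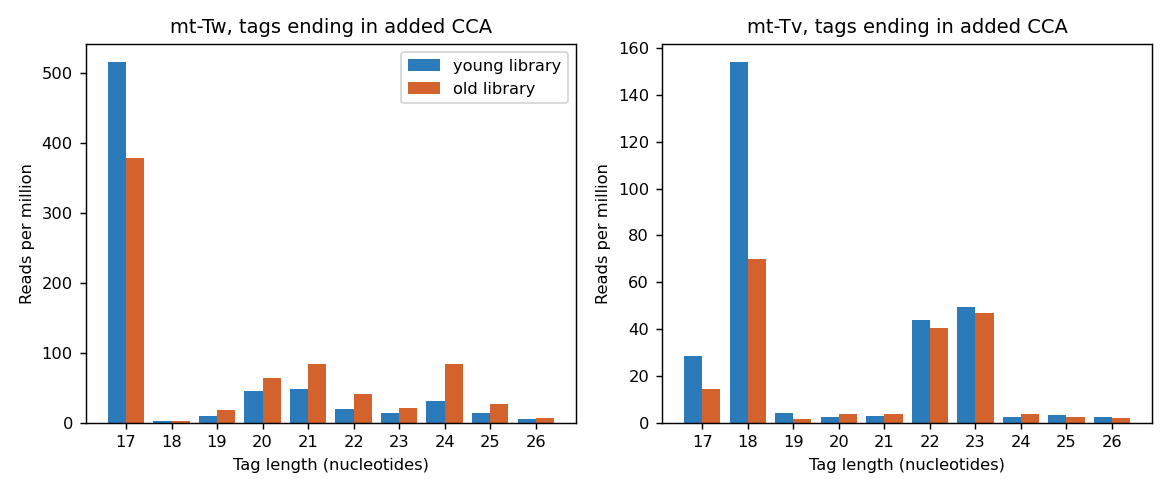
RPM of the tags of mt-Tw (left) and mt-Tv (right) that end in added CCA, by tag length, in the young and old libraries. For mt-Tw the 17-nucleotide bar is lower in the old library (2332 young and 2516 old reads), and the bars of 19 to 26 nucleotides are higher. For mt-Tv the bars of 17 and 18 nucleotides are lower in the old library, and those of 22 and 23 nucleotides are close.

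Tags with 1 substitution against the gene were concentrated at a few bases. At each base, the reads substituted there were set against these reads plus the perfect reads that covered the base. Reads substituted at another base were left out, as were perfect reads that covered the base only with the end of the tag. This was done for the 560 bases with at least 50 reads so counted in each library. The median base was substituted in 0.139% of young and 0.326% of old reads. These medians depend on the depth of the library, because bases with few reads are often at exactly 0%, and they are not compared between libraries. Only 9 bases, in 7 genes, were substituted in at least 20% of reads in both libraries, a threshold chosen after the values were seen. Of these, 5 were base 9 of the gene, 2 lay 2 bases before the anticodon and 2 lay 8 bases before it. Positions are counted from 1 at the 5′ end of the gene, and a substitution is written as the base of the gene, its position and the base of the tag. The following are examples of substituted tags, with the substituted base in capitals.
mt-Tt tag with C29T: gtTttgtaaacctgaaatgaagatct
mt-Ts1 tag with C29T: aggatatgagattggTttga
mt-Tl1 tag with G9T: agggtTgcagagccaggaaattg
mt-Tl1 tag with G28T: ttgcTtaagacttaaaacct
mt-Tk tag with A9G: ctatgaGgctaagagcgttaaccttt
mt-Tp tag with A9T: agaagtTgtttaattagaatacca
mt-Tw tag with A9T: agaagtttTggatatac

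Base 9, which joins the acceptor and D arms, carries a methyl group on N1 of the purine in many mitochondrial tRNAs, and this group blocks base pairing in reverse transcription. Of the 20 genes, 13 have A at base 9, 5 have G and 2 have C. Over the genes with A, base 9 was substituted in 69.5% of young reads (701 of 1008) and 67.3% of old reads (1356 of 2015). Over those with G it was substituted in 29.7% (475 of 1601) and 28.5% (657 of 2307), and over the pair with C, mt-Tm and mt-Ts1, in 0.41% (1 of 244) and 0.472% (2 of 424). Every gene with A was substituted in at least 49.0% of young and 42.4% of old reads, from few reads in some, such as 2 of 2 and 3 of 4 in mt-Tr. The genes with G ranged from 0% to 31.6% of young and from 0% to 30.8% of old reads, and most of their reads were of mt-Tl1. The presence of the methyl group itself was not tested. Perfect reads of genes with nuclear copies enter these shares, and the part of the copies was not tested.

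Among single genes, mt-Tw was substituted at base 9 in 84.4% of young and 87.4% of old reads, mostly as A9T, and mt-Te in 81.0% and 87.0%. mt-Tk was substituted in 64.5% and 61.4%, mostly as A9G, and mt-Tp in 49.0% and 42.4%. For mt-Tl1, which has G there, 436 of 1381 young reads (31.6%) and 616 of 2000 old reads (30.8%) were substituted, mostly as G9T. mt-Ti, also with G, had 22.5% and 18.8%, and mt-Tq, with G too, 10.1% and 5.79%. The other genes with G had few reads there, with 0 of 5 and 0 of 3 substituted in mt-Th and 0 of 4 and 1 of 7 in mt-Tc. For the 5 genes that passed the threshold, the log2 odds ratio of old over young had an interval that included 0, such as -0.27 to 0.17 for mt-Tl1.

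The base 2 before the anticodon, at the start of the anticodon loop, was substituted in mt-Tt and mt-Ts1. In mt-Tt, 1584 of 1709 young reads (92.7%, exact interval 91.3 to 93.9) and 883 of 957 old reads (92.3%, 90.4 to 93.9) were substituted, of which 1363 and 766 as C29T. In mt-Ts1 it was 194 of 270 young reads (71.9%) and 220 of 291 old reads (75.6%). A methylated C at this place is known in these tRNAs. In other genes with C there, the base was rarely substituted, such as 6 of 943 young and 8 of 968 old reads of mt-Th and 4 of 422 and 0 of 481 of mt-Tv, where a count of 0 allows up to 0.764% (exact interval).

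The base 8 before the anticodon was substituted in mt-Tl1, in 104 of 133 young reads (78.2%) and 244 of 306 old reads (79.7%), mostly as G28T, and in mt-Tk, in 31.1% and 25.96%, mostly as G19T. It joins the D and anticodon arms, where some tRNAs carry a dimethylated G. Other genes with G there were substituted in few reads, such as 0 of 212 young and 3 of 233 old reads of mt-Ts1. Below the threshold, the base after the anticodon of mt-Tf, a place of bulky modified A in this tRNA, was substituted in 13 of 79 young and 37 of 183 old reads (16.5% and 20.2%), base 8 of mt-Tp in 24.1% and 8.82%, mostly as T8A, and base 6 of mt-Tl1 in 150 young and 205 old reads (13.99% and 13.2%), mostly as G6A.

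**Figure D5:**
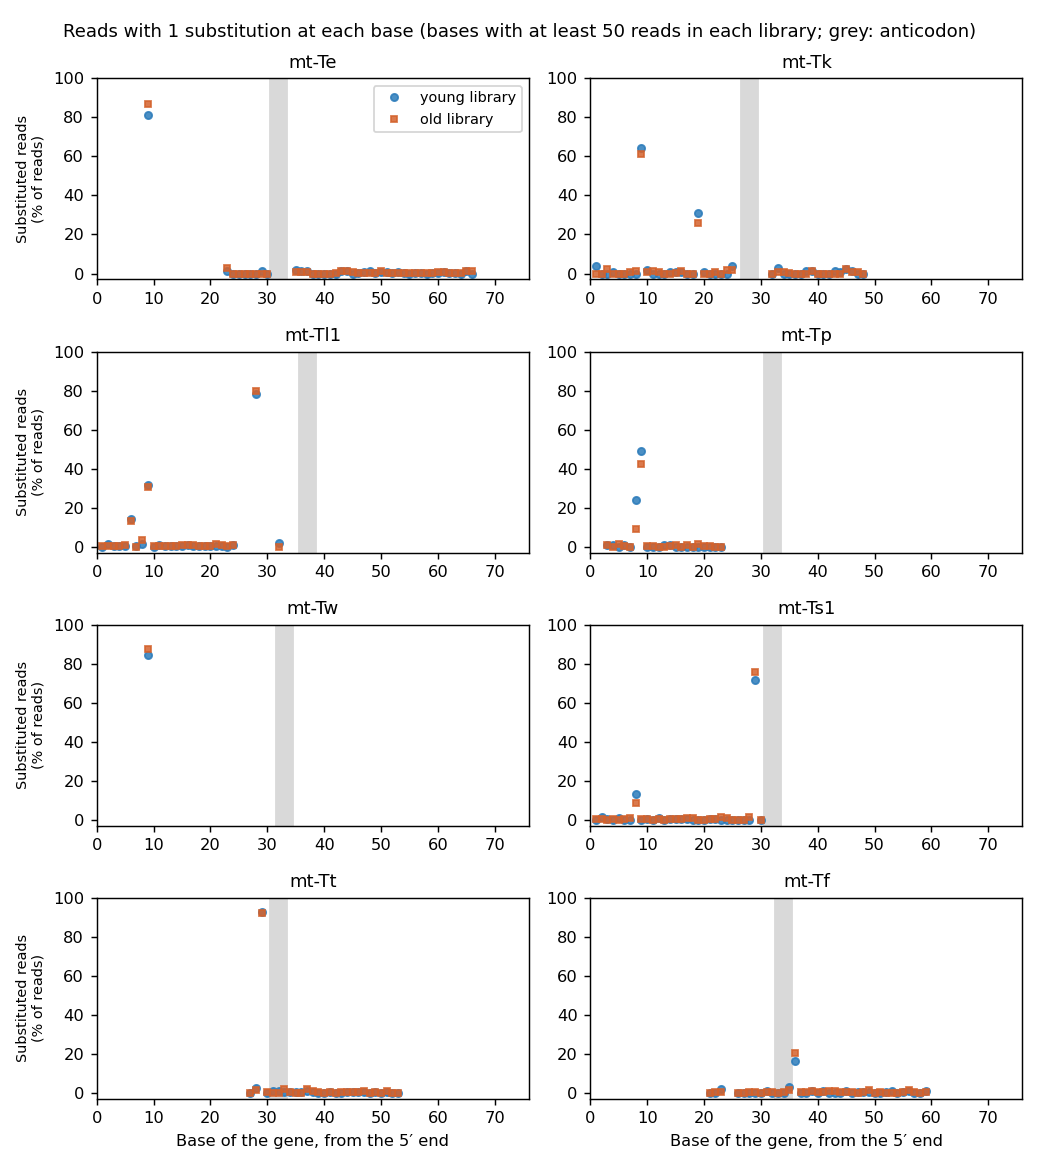
Share of reads with a substitution at each base, in percent, for 8 genes, with the young library as circles and the old library as squares, for bases with at least 50 reads in each library. Most bases lie near 0. Of the single bases that stand out, most do so at about the same height in both libraries, such as base 9 of mt-Tw (84.4% and 87.4%) and base 29 of mt-Tt (92.7% and 92.3%). Base 8 of mt-Tp is higher in the young library (24.1% and 8.82%).

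The substituted and added bases bear on the levels, because perfect matching leaves such reads out. With tags of 1 substitution and unmatched tags with C, CC or CCA added, mt-Tt held 3141 young and 2189 old reads, a log2 ratio of -1.08, past 2-fold. mt-Tw then held 1188 and 3111 reads, and its log2 ratio went from 0.43 to 0.83. mt-Tp, with 297 and 706 reads, was at 0.69, and the sum of the 20 genes stayed at 0.02, with 17822 and 26548 reads.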

How the data were processed

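Small RNA was measured in 1 young and 1 old library, each the combined cDNA of 2 mice, so that libraries are compared and not ages. The authors trimmed the 3′ adapter, aligned reads to mm9 with SOAP (version not given in the sources used here) and collapsed identical sequences, and the deposited values were raw read counts per tag, without normalization. Reads that did not align are not in these counts, and size selection and ligation set which fragments could be read.

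All tags without an undetermined base were searched on both strands of NCBIM37 for perfect matches, and counted for a gene when they lay inside it on its sense strand, whatever their other matches. Levels were scaled to the total reads of each library (4523267 young and 6658732 old), as in the study. Log2 ratios have 95% Clopper-Pearson intervals, and P-values are those of the MA-plot-based random sampling formula (DEGseq), two-sided, with Benjamini-Hochberg adjustment over the 671 small RNA genes of GENCODE M1 with at least 20 reads. edgeR's quasi-likelihood test could not be fitted with 1 library in each group. Part shares have exact binomial intervals. Substituted tags have 1 substitution and no perfect match in the genome. Shares of substituted reads by base leave out the last 3 bases of every tag, perfect or substituted, and reads substituted at another base. Levels and part shares with substituted tags added include substitutions in those last bases. All 20 genes are given with their reads, and the 8 with the most reads per base (mean of both libraries) and the 10 tags with the most reads are described in full. mt-Tp, mt-Tw, mt-Tk, mt-Tq and mt-Tg were described further after their values had been seen. The members and lists were chosen with earlier results of these data known.

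The alternatives were other depths (reads without an undetermined base, perfect matches, miRNA precursors, TMM, DESeq2 size factors), other sets of tags, other definitions of the parts, a GC correction, other minimums and folds, and single genes left out. The tests were checked on simulated counts drawn from Poisson sampling of reads. The simulation held no variation between animals or libraries and no PCR duplicates, so it checks the formulas only. Python 3.11.15 with numpy 2.4.6, scipy 1.17.1, pandas 2.3.3 and numba 0.67.0, were used, with edgeR 4.0.16 and DESeq2 1.42.0 in R 4.3.3 for scaling.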

Additional observations from a re-analysis of the deposited data

Results flagged for a closer look

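Reads outside the counts of perfect matches inside the genes were above the 3 reads that a count of 0 allows. They are listed here where both libraries held over 50 such reads, or where a base passed the threshold for substitutions, and no control sample exists for them. Tags ending in added CCA held 3200 young and 4842 old reads for mt-Tw, 1332 and 1261 for mt-Tv, 110 and 169 for mt-Te, and 72 and 67 for mt-Tt. Tags ending in a single added C held 488 young and 685 old reads for mt-Tg and 66 and 97 for mt-Te. Substituted reads at base 9 were 47 young and 47 old for mt-Te, 227 and 296 for mt-Tk, 436 and 616 for mt-Tl1, 100 and 251 for mt-Tp, and 221 and 567 for mt-Tw. Before the anticodon, base 29 of mt-Tt held 1584 and 883 substituted reads and base 29 of mt-Ts1 194 and 220, base 28 of mt-Tl1 104 and 244, and base 19 of mt-Tk 50 and 54. Base 6 of mt-Tl1, under the threshold, held 150 and 205. Antisense reads were 147 young and 216 old on mt-Ti, and 76 and 142 on mt-Tp. The causes were not tested.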

How the results depend on the processing

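The minus-strand sum, 0.27, was 0.21 without mt-Ta, its gene with the most reads. It was 0.23 to 0.36 without each of its other genes, which were added once the values were known. Its lowest value, 0.12, came with the GC correction. The minus-strand sum kept its sign and its side of the threshold under all alternatives run that can move it. The sum of all 20 genes, 0.02 on the log2 scale, did not. It was -0.034 with the depth of reads without an undetermined base, -0.030 with that of perfect matches, -0.050 with that of miRNA precursors, -0.084 with a GC correction and -0.052 without mt-Tv, and it was 0.63 with TMM factors, 0.58 with DESeq2 size factors and 0.35 with single-match tags only. TMM and DESeq2 moved every log2 ratio by 0.61 and 0.56. The plus-strand sum, -0.08, became 0.54 (TMM), 0.48 (DESeq2) and 0.28 (single match, where mt-Tv held most of the reads). Without mt-Tt and without mt-Th, both added once the values were known, the sum of all genes was 0.12 and 0.092 and the plus-strand sum 0.051 and 0.013. The count of genes at least 2-fold apart, 0, became 5 with TMM (mt-Ta, mt-Tf, mt-Tp, mt-Tq and mt-Tw, higher), 3 with DESeq2 (mt-Tf, mt-Tp and mt-Tq), 1 with substituted and CCA tags (mt-Tt, lower), 1 with tags of at least 5 reads (mt-Tp), 1 with the GC correction (mt-Tt), and 4 at 1.5-fold (mt-Tt, mt-Tp, mt-Tq and mt-Tf). The 5′ and 3′ shares, young and old, were 10.5% and 11.6%, and 62.4% and 66.4%, with single-match tags, 24.4% and 25.3%, and 36.1% and 46.8%, with substituted and CCA tags, 12.4% and 14.2%, and 6.20% and 8.22%, when defined by the ends, and 32.7% and 32.02%, and 26.2% and 27.7%, with genes weighted equally. With tags of at least 5 reads the 3′ shares were 34.7% and 45.2%. The 3′ share was higher in the old library in each of these. The following single genes changed sign. With TMM, mt-Tc was at 0.091, mt-Th at 0.098, mt-Tl1 at 0.61, mt-Tm at 0.11 and mt-Tn at 0.56, and with DESeq2 they were at 0.037, 0.044, 0.56, 0.059 and 0.51. mt-Tk and mt-Tl2 were at -0.038 and -0.041 with the depth of reads without an undetermined base, -0.034 and -0.037 with perfect matches, and -0.053 and -0.056 with miRNA precursors. With the GC correction, mt-Td was at -0.53, mt-Tg at -0.092, mt-Ti at -0.14, mt-Tk at -0.18, mt-Tl1 at 0.38, mt-Tl2 at -0.23, mt-Tr at -0.30 and mt-Ts1 at -0.14. With substituted and CCA tags, mt-Tk was at -0.076, mt-Tn at 0.035 and mt-Ts1 at -0.12, with tags of at least 5 reads mt-Tl1 was at 0.012 and mt-Tl2 at -0.35, and with single-match tags mt-Tl2 was at -0.21. mt-Tc no longer passed the test with single-match tags (-0.12). The causes were not tested. Genes with under 100 reads in the young library, mt-Td, mt-Tl2 and mt-Tw, had the widest intervals. No paired analysis was possible because each age has 1 library.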
